A study of Mus musculus with 4 samples.

Results

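The markers described here are 30 genes that mark successive stages of the oligodendrocyte lineage in the mouse brain. All 30 symbols were found once each among the 54348 rows of the deposited expression table. Taken in their given order, with stage boundaries set here, they comprise 8 precursor markers, 12 markers of committed and newly formed oligodendrocytes and 10 markers of mature cells. RNA-seq was run on cells sorted from the forebrain of pups killed on postnatal day 4. There were 2 fusion libraries, from mice with the PdgfraCreER, MN1:BEND2 and AI14 alleles, and 2 control libraries, from mice with PdgfraCreER and AI14 alone. Every mouse received tamoxifen by injection into the abdomen on postnatal days 0 and 1. PdgfraCreER is a tamoxifen-activated recombinase made where the gene Pdgfra is on, in oligodendrocyte precursors and also in some fibroblasts. AI14 makes recombined cells glow red with tdTomato, and live red cells were collected from dissociated tissue whose pial membranes had been removed. MN1:BEND2 is a fusion gene found in astroblastoma, a brain tumour. Not given in the sources used here is how the fusion gene was driven in these mice.

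Oligodendrocyte precursors divide in the early postnatal forebrain, and some of them commit to differentiation and stop dividing. Committed cells pass through a short premyelinating stage, marked by genes such as Gpr17, Bcas1 and Enpp6. They then become mature cells that wrap axons with myelin, a membrane rich in galactolipids. In the mouse forebrain most myelin forms later than the age sampled here.

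General measures set the fusion libraries apart before any marker was read. Values were TPM, each gene's share of a library's transcripts with transcript length taken into account. The mitochondrial share of TPM was 48.7% and 26.2% in the fusion libraries, and 10.1% and 7.30% in the control libraries. In the fusion libraries 9050 and 10017 genes reached 1 TPM, against 12772 and 13219 genes in the control libraries. TPM keeps no read depth, so depth is unknown. Bend2 had 3.82 and 8.72 TPM in the fusion libraries and was listed at 0 in both control libraries. All 5 defining markers of the sorted lineage, Pdgfra, Cspg4, Olig1, Olig2 and Sox10, were detected in every library. Their summed level was 244 and 360 TPM in the fusion libraries and 657 and 900 TPM in the control libraries. The direction turned after rescaling, which is defined below, with sums of 532 and 521 in the fusion libraries and 369 and 434 in the control libraries. After rescaling none of the 5 passed. A list of 12 microglia and macrophage markers summed to 493 and 728 TPM in the fusion libraries, against 110 and 27.1 TPM in the control libraries. Most of the fusion sums came from Fcer1g and Tyrobp. Fcer1g alone had 327 and 480 TPM in the fusion libraries, and 27.4 and 1.17 TPM in the control libraries. Tyrobp had 105 and 116 TPM in the fusion libraries, against 16.6 and 7.66 TPM in the control libraries. Of the 11 tested members of that list 4 rose, 1 fell and 6 did not pass, where 4.95% of all tested genes rose and 51.3% fell. After rescaling 5 rose and 6 did not pass, where 14.3% of all genes rose. C1qa, which did not pass, had 1.08 and 0.851 TPM in the fusion libraries, against 6.53 and 2.15 TPM in the control libraries. The fallen one, P2ry12, was listed at 0 in both fusion libraries, reached 1 TPM in the control libraries alone and did not pass after rescaling (adjusted p = 0.0504, limma). A list of 7 fibroblast markers summed to 121 and 249 TPM in the fusion libraries and to 47.9 and 125 TPM in the control libraries. Of its 6 tested members 2 were higher, where 4.95% of all tested genes were higher. After rescaling 5 were higher, where 14.3% of all genes were. The rescaled sums were 263 and 360 in the fusion libraries, against 26.9 and 60.1 in the control libraries. A list of 10 neuronal markers summed to 52.0 and 35.9 TPM in the fusion libraries, against 207 and 203 TPM in the control libraries. Snap25 alone had 24.7 and 8.79 TPM in the fusion libraries, against 135 and 132 TPM in the control libraries. Of the 7 tested neuronal markers 4 fell, where 51.3% of all tested genes fell. Their median log2 change lay at 0.02 relative to the median of all genes, and after rescaling 2 fell and 1 rose. The lists for endothelial, mural and ependymal cells each summed to 137 TPM or less in each fusion library and 217 TPM or less in each control library. The 9 markers of astrocytes and radial glia summed to 9054 and 17252 TPM in the fusion libraries, against 9584 and 9546 TPM in the control libraries. Of that list Fabp7, which immature glia also make, alone had 9006 and 17173 TPM in the fusion libraries, and 9331 and 9240 TPM in the control libraries. Of the 8 tested members of that list 4 fell, where 51.3% of all tested genes fell, and after rescaling 1 fell and 2 rose. Among the 4 was Slc1a3, a glutamate transporter, with 10.7 and 31.6 TPM in the fusion libraries, against 109 and 141 TPM in the control libraries. Slc1a3 did not pass after rescaling (log2 change -0.95, adjusted p = 0.135, limma). A list of 4 Y-linked genes summed to 0.281 and 0.190 TPM in the fusion libraries and to 156 and 157 TPM in the control libraries, so sex and genotype cannot be told apart. The part of these differences in the results on the stage markers was not tested.

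Most stage markers were lower in the fusion libraries. The marker that passed as higher was 9630013A20Rik, a long noncoding RNA of committed oligodendrocytes, with a mean TPM 2.65-fold that of the control libraries. Of the 30 markers 25 reached 1 TPM in at least 2 libraries and were tested. Among these, 17 fell, 1 rose and 7 did not pass (limma on log2(TPM + 1), Benjamini-Hochberg adjusted p under 0.05 over 12871 genes). Across all genes tested 51.3% fell and 4.95% rose, or 56.3% in either direction, so a fall was common among expressed genes in general. The median log2 change was -2.95 for the tested markers and -1.41 for all genes tested. Matn4 and Gjb1 were under 1 TPM in both fusion libraries and entered the test through the control libraries alone, so these summaries are a description. Rescaling, which here means setting the median ratio between libraries to 1, left 12 markers that fell, 2 that rose and 11 that did not pass. After rescaling 18.6% of all genes were lower and 14.3% higher, or 33% in either direction. Both fusion libraries lay below both control libraries for 22 of the 25 tested markers, and 71.1% of all tested genes did so. They lay above both for 2 tested markers, against 10.2% of all tested genes. Without control replicate 1, or without control replicate 2, only Matn4 and Gjb1 passed, both lower, and these are the markers that entered the test through the control libraries alone. A fit without 1 library leaves a lone library in that group, so which markers passed in such fits is a description. In bulk samples fewer cells of a stage and less RNA per cell cannot be told apart.

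**Figure D1:**
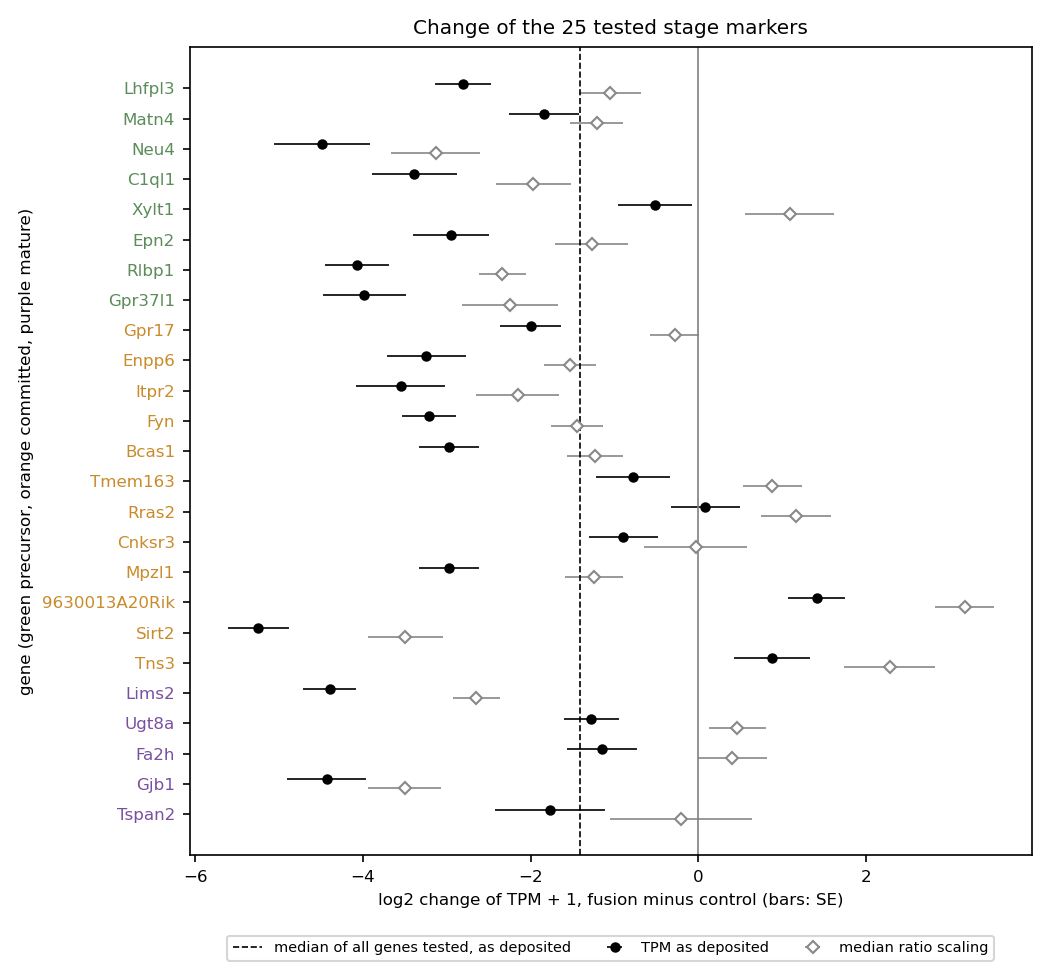
Log2 change of TPM + 1 (x axis, fusion minus control) for the 25 tested stage markers (y axis), with bars for the standard error. Black points use TPM as deposited and open diamonds use rescaled libraries. The dashed line is the median of all genes tested, -1.41. The marker 9630013A20Rik lies furthest right and Sirt2 furthest left with TPM as deposited.

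Of the 8 precursor markers, all were tested, 7 fell and 1 did not pass, where 51.3% of all genes tested fell. The median log2 change of these markers was -3.17, or -1.76 relative to the median of all genes. Lhfpl3 (chromosome 5, 22746059 to 23275597, GRCm38), for a membrane protein with several spanning segments, had 55.7 and 45.4 TPM in the fusion libraries, against 336 and 383 TPM in the control libraries. Its log2 change was -2.81 ± 0.33 (SE, adjusted p = 0.00385, limma), and -1.05 after rescaling (adjusted p = 0.0885). Rlbp1, for a protein that binds retinaldehyde, had 17.5 and 22.2 TPM in the fusion libraries and 281 and 431 TPM in the control libraries. The fusion libraries were far below the control libraries, with a log2 change of -4.07 ± 0.38 (SE, adjusted p = 0.00367, limma). Gpr37l1, for an orphan receptor that astrocytes also make, had 24.2 and 12.7 TPM in the fusion libraries, against 220 and 390 TPM in the control libraries (log2 change -3.98, adjusted p = 0.00403, limma). Both Rlbp1 and Gpr37l1 also fell after rescaling, with log2 changes of -2.34 and -2.25.

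Neu4, for a sialidase that trims sialic acid from glycans, had the largest fall of the precursor markers on log2(TPM + 1) as deposited. It had 0.503 and 2.41 TPM in the fusion libraries and 39.0 and 63.7 TPM in the control libraries, a log2 change of -4.49 ± 0.57 (SE, adjusted p = 0.00423, limma). Set against Pdgfra in the same library, which no rescaling of a library can alter, Neu4 was at 0.00408 and 0.0126 of the Pdgfra level in the fusion libraries, against 0.116 and 0.148 in the control libraries. C1ql1, for a secreted protein of the C1q family, had 0.925 and 2.56 TPM in the fusion libraries and 22.3 and 31.3 TPM in the control libraries (log2 change -3.39, adjusted p = 0.00569, limma). Epn2, for the endocytic adaptor epsin 2, had 8.10 and 7.21 TPM in the fusion libraries, against 47.5 and 91.1 TPM in the control libraries (log2 change -2.95, adjusted p = 0.00598, limma). Epn2 did not pass after rescaling (log2 change -1.27, adjusted p = 0.0844).

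Matn4, for the matrix protein matrilin 4, was low in every library, with 0.0241 and 0 TPM in the fusion libraries and 1.48 and 4.31 TPM in the control libraries (log2 change -1.84, adjusted p = 0.0162, limma). It reached 1 TPM in the control libraries alone, so its call is a description. It did not pass with no filter (adjusted p = 0.0817), with quantile normalization (adjusted p = 0.267), or without fusion replicate 1 or 2 (adjusted p = 0.0579 and 0.0555, limma). With a correction for GC content and length its change was -0.21 and did not pass (adjusted p = 0.731, limma). Xylt1, for the enzyme that starts the sugar chains of proteoglycans, did not pass. It had 10.7 and 6.42 TPM in the fusion libraries and 11.3 and 13.5 TPM in the control libraries. Its log2 change of -0.52 turned to 1.09 after rescaling, without passing (adjusted p = 0.354 and 0.182, limma). Without control replicate 1 or 2, the 7 precursor markers other than Matn4 did not pass.

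**Figure D2:**
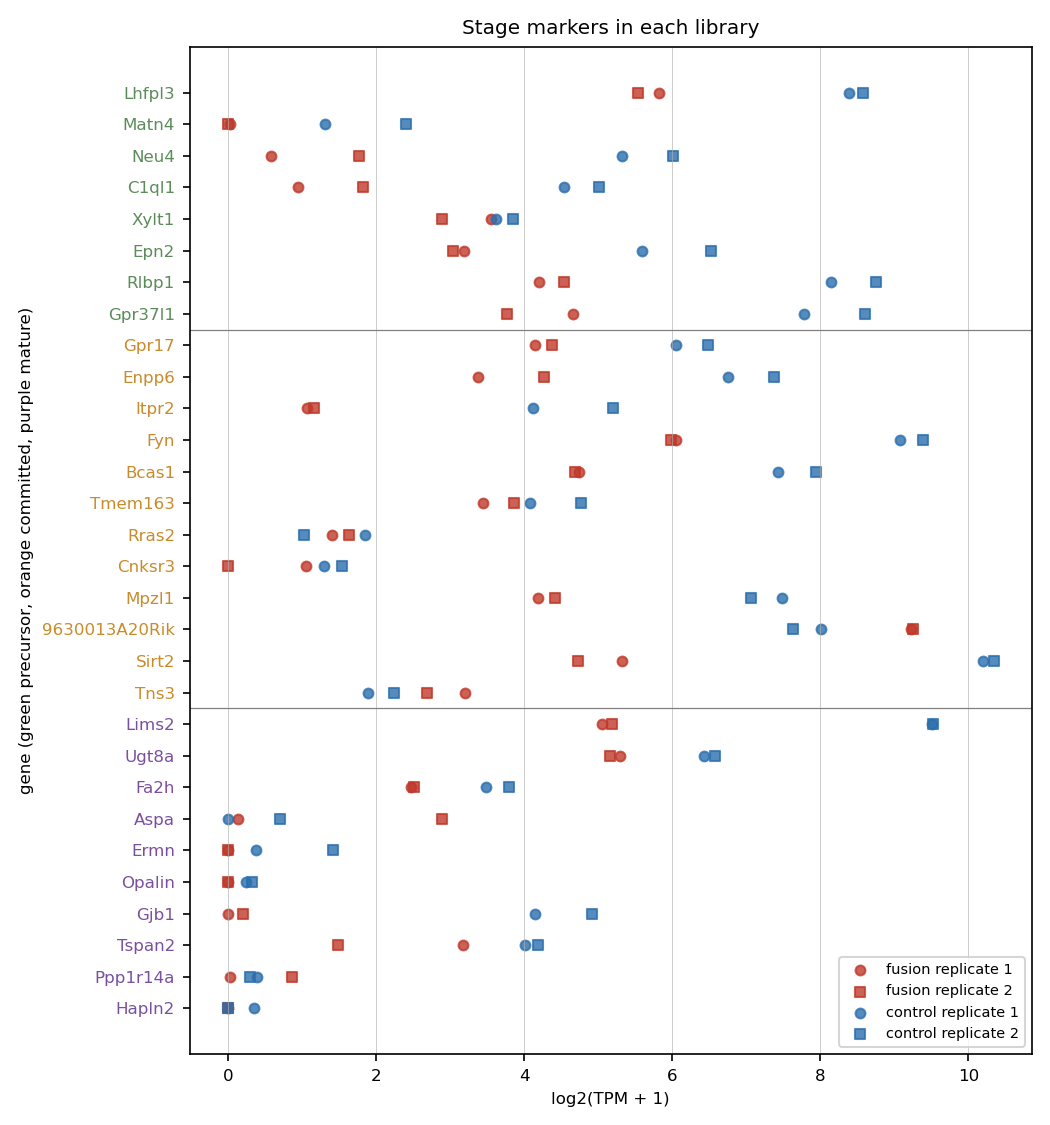
Level of each stage marker (y axis, ordered from precursor to mature) as log2(TPM + 1) (x axis) in the 2 fusion libraries (red) and 2 control libraries (blue), with circles for replicate 1 and squares for replicate 2. The fusion points lie left of the control points for most markers, and right of them for 9630013A20Rik and Tns3.

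The committed and newly formed group held the most varied changes. Of its 12 markers, all tested, 7 fell, 1 rose and 4 did not pass, where 51.3% of all genes tested fell and 4.95% rose. The median log2 change of the 12 was -2.49, or -1.08 relative to the median of all genes. After rescaling 5 fell, 2 rose and 5 did not pass, where 18.6% of all genes fell and 14.3% rose. Without control replicate 1 or 2, none of the 12 passed.

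Sirt2, for an NAD-dependent deacetylase that acts on tubulin, was the most abundant of the 30 markers in both control libraries. It had 38.9 and 25.6 TPM in the fusion libraries and 1179 and 1298 TPM in the control libraries. The log2 change of -5.25 ± 0.36 was the largest fall among the tested markers on log2(TPM + 1) as deposited (SE, adjusted p = 0.00367, limma), and after rescaling it was -3.50 (adjusted p = 0.0115). That order depends on the setting. With a pseudocount of 0.1 Sirt2 changed by -5.29, against -7.13 for Gjb1 and -5.34 for Neu4, and with the GC and length correction by -2.76, against -2.98 for Neu4. Sirt2 shares 42 exon bases with Nfkbib on the other strand. No strand-specific kit is named, so reads of these genes cannot be told apart over that stretch. Nfkbib had 3.70 and 1.5 TPM in the fusion libraries, against 57.9 and 109 TPM in the control libraries. Fyn, for a Src family kinase active at the start of myelination, had 65.1 and 62.6 TPM in the fusion libraries and 537 and 669 TPM in the control libraries. It fell by 3.21 ± 0.33 on the log2 scale (SE, adjusted p = 0.00371, limma) and ranked 2 in both fusion libraries and 3 in both control libraries among the markers.

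Bcas1, Enpp6 and Gpr17, the markers of the premyelinating stage named above, were among the 7 committed markers that fell with TPM as deposited. Bcas1 had 25.7 and 24.9 TPM in the fusion libraries, against 172 and 246 TPM in the control libraries (log2 change -2.97, adjusted p = 0.00393, limma). Enpp6, for a choline-releasing phosphodiesterase, had 9.36 and 18.4 TPM in the fusion libraries and 107 and 166 TPM in the control libraries (log2 change -3.24, adjusted p = 0.00538, limma). Gpr17, for a receptor that restrains maturation, had 16.8 and 19.8 TPM in the fusion libraries, against 65.5 and 88.4 TPM in the control libraries (log2 change -2.0, adjusted p = 0.00882, limma). Gpr17 was the smallest of these changes, and after rescaling its log2 change of -0.28 did not pass (adjusted p = 0.515). Bcas1 and Enpp6 fell after rescaling as well, with log2 changes of -1.23 and -1.53. With the GC and length correction Bcas1 did not pass (adjusted p = 0.0688, limma).

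Itpr2, for a calcium channel of the endoplasmic reticulum, had 1.09 and 1.23 TPM in the fusion libraries and 16.4 and 36.0 TPM in the control libraries (log2 change -3.55, adjusted p = 0.00564, limma). Mpzl1, for a cell surface glycoprotein, had 17.2 and 20.4 TPM in the fusion libraries, against 179 and 133 TPM in the control libraries (log2 change -2.97, adjusted p = 0.00393, limma). Mpzl1 did not pass after rescaling (log2 change -1.24, adjusted p = 0.0511). Tmem163, for a zinc transporter, had 9.88 and 13.5 TPM in the fusion libraries and 15.9 and 26.2 TPM in the control libraries. It did not pass (log2 change -0.77, adjusted p = 0.184, limma). Its change turned to 0.89 after rescaling, without passing (adjusted p = 0.119). Rras2, for a small GTPase, and Cnksr3, for a signalling scaffold, never exceeded 2.60 TPM and did not pass. Rras2 had 1.66 and 2.11 TPM in the fusion libraries and 2.60 and 1.04 TPM in the control libraries, so its groups overlapped. Cnksr3 had 1.08 and 0 TPM in the fusion libraries, against 1.45 and 1.92 TPM in the control libraries.

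Tns3, for the focal adhesion protein tensin 3, had 8.19 and 5.44 TPM in the fusion libraries and 2.70 and 3.74 TPM in the control libraries. Both fusion values lay above both control values. The log2 change of 0.88 ± 0.45 did not pass (SE, adjusted p = 0.151, limma), whereas the change of 2.28 after rescaling did (adjusted p = 0.0343).

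The long noncoding RNA 9630013A20Rik had 596 and 611 TPM in the fusion libraries and 257 and 198 TPM in the control libraries. The groups did not overlap, and the fusion libraries were nearly equal with TPM as deposited. Rescaled, the RNA stood at 1302 and 883 in the fusion libraries, against 144 and 95.5 in the control libraries. It averaged 603 ± 10.0 TPM in the fusion libraries and 228 ± 41.8 TPM in the control libraries (SD, n = 2 each), a log2 change of 1.41 ± 0.34 (SE, adjusted p = 0.0189, limma). After rescaling the change was 3.18 (adjusted p = 0.0108). With a correction for GC content and transcript length it was 2.12 (adjusted p = 0.00458, limma). It did not pass without control replicate 1 (adjusted p = 0.147) or without control replicate 2 (adjusted p = 0.217). The RNA was the most abundant of the 30 markers in both fusion libraries, and held sixth and eighth place in the control libraries. Its ratio to Sirt2 in the same library was 15.3 and 23.9 in the fusion libraries, against 0.218 and 0.153 in the control libraries. Its gene lies on the minus strand of chromosome 14, 84458639 to 84476424 (GRCm38), inside the span of the protocadherin gene Pcdh17 on the plus strand. The annotation gives these genes no exon base in common. Pcdh17 had 3.72 and 5.64 TPM in the fusion libraries and 13.5 and 14.9 TPM in the control libraries.

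The promoters of 9630013A20Rik, which rose, and of Sirt2, the most abundant marker of the control libraries, are shown for comparison, since these RNAs of the same stage went in opposite directions. Each window runs from 250 bases before the start of the gene to 50 after it, on the strand of the gene (RefSeq, GRCm38.p6). Capitals mark matches, on either strand, to the letters ACAAAG or ACAATG, a core bound by SOX factors, and to CAGCTG, an E-box. The windows are chr14:84476375-84476674, minus strand, for 9630013A20Rik and chr7:28766502-28766801, plus strand, for Sirt2.
9630013A20Rik: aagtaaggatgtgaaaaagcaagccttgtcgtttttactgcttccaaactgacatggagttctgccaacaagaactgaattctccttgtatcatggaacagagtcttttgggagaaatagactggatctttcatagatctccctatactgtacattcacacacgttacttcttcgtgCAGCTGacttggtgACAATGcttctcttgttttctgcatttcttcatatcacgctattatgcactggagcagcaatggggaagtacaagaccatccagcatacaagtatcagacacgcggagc
Sirt2: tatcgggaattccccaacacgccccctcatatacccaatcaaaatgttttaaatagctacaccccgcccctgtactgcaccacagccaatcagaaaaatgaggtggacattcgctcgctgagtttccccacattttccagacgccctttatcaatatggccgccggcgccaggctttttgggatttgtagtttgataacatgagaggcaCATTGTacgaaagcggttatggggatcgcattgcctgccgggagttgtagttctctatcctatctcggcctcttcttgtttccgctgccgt
The first window held 1 match to the SOX letters and 1 to the E-box letters, and the second held 1 match to the SOX letters. Of 32851 promoter windows in the same table, 28.6% held the SOX letters and 16.3% held the E-box letters. For 24 of the 30 markers there were 29 windows, of which 41.4% held the SOX letters and 24.1% the E-box letters. Such a match is a description of the letters and not of a bound site.

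Of the 10 mature markers 5 were tested, of which 3 fell and 2 did not pass. Across all genes tested 51.3% fell, and 18.6% fell after rescaling. The median log2 change of the tested 5 was -1.77, or -0.36 relative to the median of all genes. After rescaling 2 fell and 3 did not pass, and without control replicate 1 or 2 Gjb1 passed and the other 4 did not. With TPM plus a pseudocount of 5 all 5 fell, as did 6979 of the 12871 genes tested. Lims2, for the focal adhesion protein PINCH2, had 32.2 and 35.3 TPM in the fusion libraries and 726 and 737 TPM in the control libraries. With TPM as deposited the control values were nearly equal, as were the fusion values. The log2 change was -4.40 ± 0.32 (SE, adjusted p = 0.00367, limma). Rescaled, Lims2 stood at 70.2 and 51.1 in the fusion libraries, against 407 and 355 in the control libraries. Lims2 shares 188 exon bases with Gpr17 on the other strand of chromosome 18, and how reads from the shared stretch were divided is uncertain. Gjb1, for the gap junction protein connexin 32, had 0 and 0.152 TPM in the fusion libraries and 16.8 and 29.3 TPM in the control libraries (log2 change -4.43, adjusted p = 0.00382, limma). Gjb1 reached 1 TPM in the control libraries alone, so its values are a description and its call supports nothing further. Gjb1 lies on the X chromosome, and for it too sex and genotype cannot be told apart.

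Of the enzymes that make myelin galactolipids 1 passed, with a change near the median of all genes. Ugt8a, for the enzyme that adds galactose to ceramide, had 38.2 and 34.9 TPM in the fusion libraries and 85.4 and 94.6 TPM in the control libraries (log2 change -1.28, adjusted p = 0.0234, limma). Its change lay at 0.13 relative to the median of all genes and turned to 0.46 after rescaling, without passing (adjusted p = 0.349). Fa2h, which hydroxylates the fatty acids of these lipids, had 4.58 and 4.69 TPM in the fusion libraries, against 10.2 and 12.9 TPM in the control libraries, and did not pass (log2 change -1.15, adjusted p = 0.0623, limma). It turned to 0.41 after rescaling, without passing (adjusted p = 0.496). Tspan2, for a tetraspanin of myelinating cells, had 8.02 and 1.81 TPM in the fusion libraries and 15.2 and 17.2 TPM in the control libraries (log2 change -1.77, adjusted p = 0.0670, limma). Its fusion libraries differed more from each other than its control libraries did.

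The remaining mature markers were scarcely detected at this age and were not tested. Ermn, for a cytoskeletal protein of the myelin sheath, Opalin, for a membrane protein of the sheath, and Hapln2, for a link protein of the matrix at nodes of Ranvier, were listed at 0 in both fusion libraries. In the control libraries Ermn had 0.298 and 1.67 TPM, Opalin had 0.187 and 0.254 TPM, and Hapln2 had 0.271 and 0 TPM. Ppp1r14a, for a protein phosphatase inhibitor, had 0.0242 and 0.819 TPM in the fusion libraries, against 0.318 and 0.225 TPM in the control libraries. Aspa, for the enzyme that splits N-acetylaspartate, had 0.10 and 6.45 TPM in the fusion libraries and 0 and 0.629 TPM in the control libraries. Its higher value came from fusion replicate 2 alone.

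The 30 markers together made up 0.0992% and 0.0988% of TPM in the fusion libraries, and 0.435% and 0.517% in the control libraries. The 12 committed markers held 79.8% and 81.5% of that sum in the fusion libraries, against 58.3% and 55.5% in the control libraries. The noncoding RNA alone held 60.1% and 61.8% of the sum in the fusion libraries and 5.92% and 3.83% in the control libraries. Without it, the shares of the stages differed by a few percentage points between the groups. Precursor markers then held 29.7% and 26.2% of the sum in the fusion libraries, against 23.4% and 28.3% in the control libraries, and the groups overlapped. Committed markers held 49.3% and 51.4% in the fusion libraries and 55.7% and 53.7% in the control libraries. Mature markers held 21% and 22.3% in the fusion libraries and 20.9% and 18.0% in the control libraries. Different genes made up these mature shares. Lims2 had 726 and 737 TPM of a mature sum of 854 and 894 TPM in the control libraries. In the fusion libraries, of 83.0 and 84.2 TPM, Lims2 had 32.2 and 35.3 TPM and Ugt8a 38.2 and 34.9 TPM. The shares of all stages are ratios within a library, so no rescaling of a library alters them. An exact permutation test of 2 against 2 libraries cannot go below p = 0.333.

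**Figure D3:**
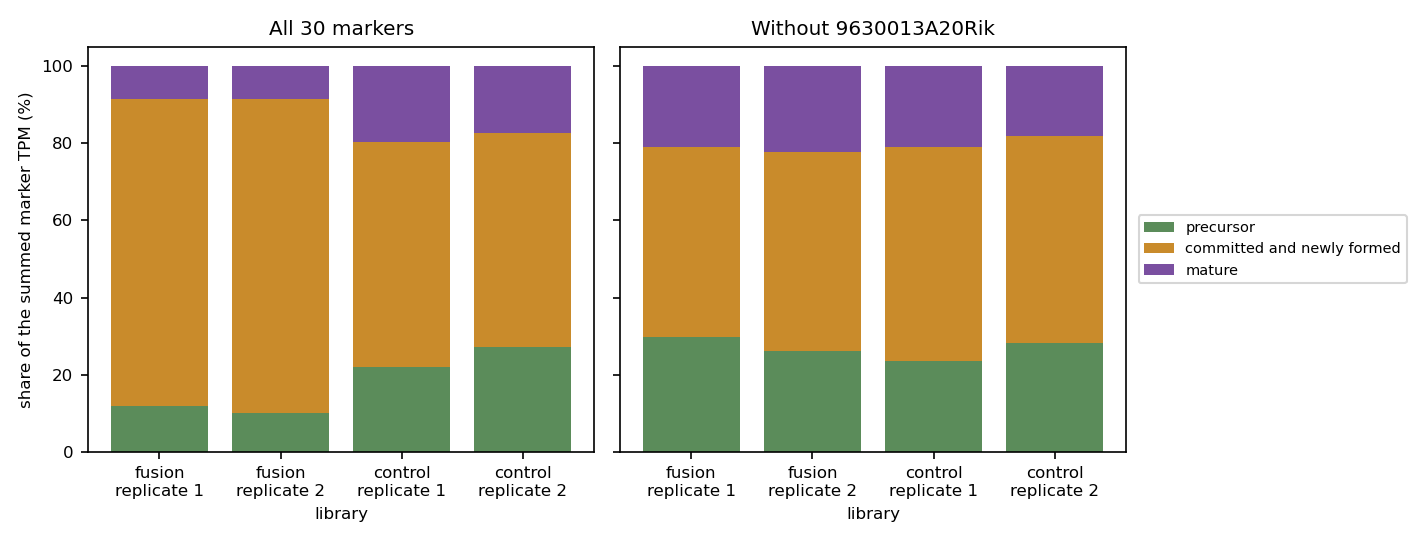
Share of the summed marker TPM (y axis, %) held by precursor (green), committed and newly formed (orange) and mature (purple) markers in each library (x axis), for all 30 markers (left) and without 9630013A20Rik (right). With all markers the committed share is 79.8% and 81.5% in the fusion libraries and 58.3% and 55.5% in the control libraries, and without the noncoding RNA it is 49.3% and 51.4%, against 55.7% and 53.7%.

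Transcript features that did not enter the choice of markers were set beside the changes. Across the 25 tested markers the log2 change had a Spearman correlation of -0.57 with the control level, -0.39 with the GC content of the longest transcript and 0.39 with its length. Over all tested genes these values were -0.47, -0.17 and 0.01. The points share the same libraries, and the control level also enters the change itself. The marker that rose, 9630013A20Rik, had the lowest GC content of the 30, at 33.3%, and Sirt2 had 54.2%. With a correction for GC content and length 12 markers fell and 3 rose, namely 9630013A20Rik, Tns3 and Rras2. In that fit 1762 of the 12862 genes tested fell and 2025 rose. Sirt2, Neu4 and Itpr2 then had log2 changes of -2.76, -2.98 and -2.55. Besides Sirt2, Gpr17 and Lims2, some markers share exon bases with genes on the other strand, and their reads there cannot be told apart. The shared stretch was 567 bases for Lhfpl3, 149 for Matn4, 152 for Tmem163, 237 for Ermn and 88 for Tspan2, and Bcas1 shared 440 and 34 bases with a pair of antisense genes.

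Most other genes of the lineage fell too with TPM as deposited, as did 51.3% of all genes tested. After rescaling 18.6% of all genes fell. The lists of these lineage genes were chosen with earlier results of these data known. Of 12 other precursor genes 9 fell and 3 did not pass, with a median log2 change of -1.30, or 0.11 relative to the median of all genes. After rescaling 1 fell, 1 rose and 10 did not pass, and the median was 0.37. For the 8 precursor markers that median was -1.76 relative to all genes. Pdgfra, the receptor whose gene drives the recombinase, had 123 and 192 TPM in the fusion libraries, against 337 and 429 TPM in the control libraries (log2 change -1.30, adjusted p = 0.0358, limma), and turned to 0.46 after rescaling. It did not pass with no filter on low values (adjusted p = 0.0818, limma) or with replicate numbers as a block (adjusted p = 0.0563, limma). Nor did Pdgfra pass without mitochondrial and ribosomal protein genes (log2 change -0.67, adjusted p = 0.0723, limma). With quantile normalization (-0.2, adjusted p = 0.578) and the GC and length correction (-0.18, adjusted p = 0.635, limma) it did not pass either. Without control replicate 1 or 2 the change of Pdgfra was -1.47 and -1.12. Sox6, for a factor that keeps precursors undifferentiated, had 5.28 and 8.10 TPM in the fusion libraries and 306 and 385 TPM in the control libraries (log2 change -5.51, adjusted p = 0.00367, limma). Luzp2, Cspg4, for the proteoglycan NG2, and Cacng4, for an auxiliary subunit of glutamate receptors, had log2 changes of -2.77, -2.62 and -2.44, and none of the 3 passed after rescaling. Against Pdgfra in the same library, the precursor marker Lhfpl3 stood at 0.451 and 0.237 in the fusion libraries and at 0.996 and 0.891 in the control libraries. Rlbp1 stood at 0.142 and 0.116 of Pdgfra in the fusion libraries and at 0.834 and 1.00 in the control libraries.

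Of 10 other committed genes 9 fell and 1 did not pass, where 51.3% of all genes tested fell. The median log2 change of these 10 genes was -1.92, or -0.52 relative to the median of all genes. Bmp4, a secreted growth factor made by committed precursors, had 5.84 and 15.8 TPM in the fusion libraries and 211 and 217 TPM in the control libraries (log2 change -4.32, adjusted p = 0.00393, limma). Lims1, for the focal adhesion protein PINCH1, Zfp488, a transcription factor of the lineage, and Pik3r3, for a regulatory subunit of a lipid kinase, had log2 changes of -3.36, -2.86 and -2.09 and passed. After rescaling, Bmp4 and Lims1 fell, and these were the 2 genes of this list that passed. Of 16 other mature and myelin genes 13 were tested, 10 fell and 3 did not pass, with a median log2 change of -2.61, or -1.21 relative to the median of all genes. Pllp, for plasmolipin, Cnp, for a myelin phosphodiesterase, and Mbp, for myelin basic protein, had log2 changes of -6.20, -4.82 and -3.57 and passed. Mbp had 61.4 and 60.4 TPM in the fusion libraries, against 529 and 1023 TPM in the control libraries. After rescaling, 6 genes of this list fell and 2 rose, Trf and Apod, which were named after their values were seen. Trf, for transferrin, had 7.40 and 18.7 TPM in the fusion libraries, against 7.65 and 11.6 TPM in the control libraries. Apod, for apolipoprotein D, had 95.9 and 156 TPM in the fusion libraries, against 34.1 and 95.9 TPM in the control libraries. Of 6 lineage factors 5 were tested, of which 3 fell and 2 did not pass, where 51.3% of all genes tested fell. The median log2 change of the tested factors was -2.11, or -0.71 relative to the median of all genes. Sox8 and Sox10 fell, with log2 changes of -3.06 and -2.43, and Olig1 and Olig2 did not pass (adjusted p = 0.0517 and 0.187, limma). After rescaling no lineage factor passed.

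**Figure D4:**
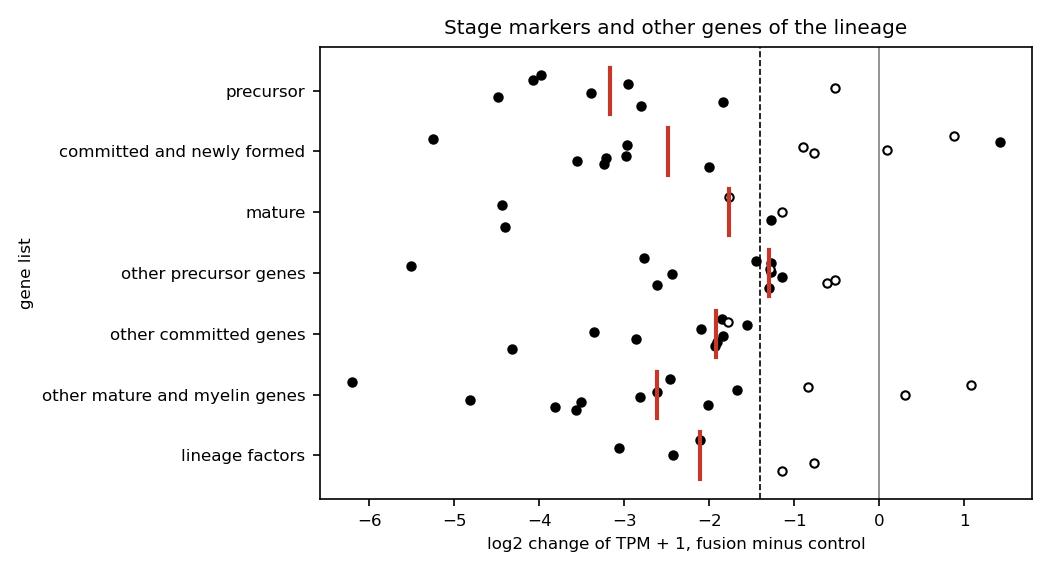
Log2 change of TPM + 1 (x axis, fusion minus control) of each tested gene in the 3 stages and in 4 lists of other lineage genes (y axis). Filled points passed an adjusted p of 0.05, open points did not, red bars are list medians and the dashed line is the median of all genes tested. The red bar of the precursor markers stands at -3.17 and that of the other precursor genes at -1.30.

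Ratios to Olig2, a factor made through the whole lineage, were also independent of scaling. Sirt2 stood at 1.69 and 0.562 of Olig2 in the fusion libraries and at 21.8 and 22.3 in the control libraries. Fyn stood at 2.82 and 1.37 of Olig2 in the fusion libraries, against 9.94 and 11.5 in the control libraries. Gpr17 stood at 0.727 and 0.436 of Olig2 in the fusion libraries, against 1.21 and 1.52 in the control libraries. Ugt8a stood at 1.65 and 0.767 of Olig2 in the fusion libraries and at 1.58 and 1.62 in the control libraries, so the groups overlapped. For 9630013A20Rik the ratio was 25.8 and 13.4 in the fusion libraries, above 4.76 and 3.40 in the control libraries. Olig2 and Pdgfra were chosen as denominators after their values were seen.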

How the data were processed

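Live tdTomato-positive forebrain cells gave 2 fusion and 2 control libraries, amplified as full-length cDNA and sequenced as paired reads, per the labels' protocols. The labels name no strand-specific kit. Nor do they say whether the libraries within a group came from different mice, so p-values measure only the spread between these libraries, and that spread may be technical. What the authors deposited is 1 table of TPM per gene. The submitters' processing notes name Salmon 1.8.0, Trimmomatic 0.39 and, as builds, mm10 and GRCm38, without an annotation release. TPM keeps no depth, so depth is unknown, and a gene at exactly 0 is called listed at 0. Table columns were assigned to samples by genotype and replicate number.

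Genes that reached 1 TPM in 2 or more of the 4 libraries were tested on log2(TPM + 1), a scale that understates changes of low genes, with limma 3.58.1 in R 4.3.3 (trend, 2-sided, Benjamini-Hochberg over 12871 genes, threshold 0.05; 3.25 prior and 2 residual degrees of freedom). The fit was tested on simulated data. Median ratio scaling used 10965 genes above 0 in every library, after which the median log2 change of all genes was -0.15. Coordinates, exon overlaps, GC content and length came from GENCODE M21 (GRCm38), with values for 12862 tested genes. All 30 markers are named, and of other lineage lists up to 4 genes that passed with the largest change, plus Pdgfra and Bend2. A few genes chosen this way are not reported here. The markers, stages and lists were chosen with earlier results of these data known.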

Additional observations from a re-analysis of the deposited data

How the results depend on the processing

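The choices varied were the pseudocount (0.1 or 5), the filter (none, or mean TPM of 5 or more), the scaling (median ratio, quantile, or without mitochondrial and ribosomal protein genes), the limma options (no trend, robust), a replicate block, a correction for GC content and length, summed rows of a symbol, other stage boundaries, and each library in turn. For every shift that follows the cause was not tested. After median ratio scaling 1846 genes rose and 2396 fell, with 2 stage markers higher, and 3 of the other lineage genes higher and 9 lower. With quantile normalization 1948 genes rose and 1955 fell, with 2 markers higher, and 2 other lineage genes higher and 9 lower. With the GC and length correction 2025 genes rose and 1762 fell, with 3 markers higher and 4 committed markers lower, and 2 other lineage genes higher and 9 lower. Without mitochondrial and ribosomal protein genes 1033 genes and 1 other lineage gene rose. With no filter 353 genes rose, and under the stricter filter 405 did. With a pseudocount of 5, 5 mature markers fell, and 6979 of all genes fell. The change of Xylt1 turned to 1.09 after median ratio scaling, 1.14 with quantile normalization, 0.07 without mitochondrial and ribosomal protein genes and 0.55 with the GC and length correction. Tmem163 turned to 0.89, 0.94 and 1.07 with scaling, quantile normalization and the correction, and Fa2h to 0.41, 0.41 and 1.08. Ugt8a turned to 0.46 and 0.47 with scaling and quantile normalization, and Cnksr3 to 0.42 and 0.97 with quantile normalization and the correction. Pdgfra turned to 0.46 with scaling. Rras2 turned to -0.32 without control replicate 2 and to -0.03 without fusion replicate 2, and ranged up to 0.49 with 1 library left out. With 1 library left out, and the lone library assumed to vary as the other group did, markers lower ranged from 2 to 18 and markers higher from 0 to 1. Precursor markers lower ranged from 1 to 6, committed from 0 to 8 and mature from 1 to 5. Other lineage genes lower ranged from 3 to 35, all genes higher from 14 to 1084 and all genes lower from 1025 to 7987. With the replicate block 18 markers fell and 1 rose, 642 genes rose and 6978 fell, and 28 other lineage genes fell. Deviations of libraries with the same number had a correlation of -0.04. With 2 libraries per group the deviations mirror each other, so this value cannot show whether the numbers pair the libraries.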
